A study of Homo sapiens with 16 samples.

Results

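The IFIT family comprises IFIT1, IFIT2, IFIT3 and IFIT5, and its members were taken as the rows that carry these 4 symbols in the tables of the series, 4 of 60669 genes. All 4 were found in both tables, and all 4 passed the filter on low values. The study set wild-type HMC3 cells, an established line of human microglia, against HMC3 cells with the label METTL3 knockout. METTL3 is the catalytic subunit of the enzyme that writes N6-methyladenosine (m6A) on RNA. There were 5 wild-type and 5 knockout-labelled libraries of polyadenylated RNA made with Smart-seq2, and 3 of each genotype from which ribosomal RNA was removed (rRNA-depleted) before a strand-marking library kit was used. All groups are untreated as far as the labels state, and whether the knockout is 1 clone or several is not given in the sources used here. The labels do not say that replicates came from separate cultures, so p-values measure the spread between these libraries, which may be technical.

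IFIT proteins, interferon-induced proteins with tetratricopeptide repeats, are made in most cells after type I or type III interferon, or directly after viral RNA is sensed. Interferon receptors activate the kinases JAK1 and TYK2, which activate a transcription factor complex that holds STAT2 and IRF9. The complex binds the interferon-stimulated response element (ISRE) in the promoters of the target genes. IFIT1 binds RNA whose cap lacks ribose methylation and blocks its translation. IFIT3 stabilises IFIT1 and joins it with IFIT2 in a complex. IFIT2 also promotes cell death and favours AU-rich RNA, and IFIT5 binds RNA with a 5′ triphosphate on its own.

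The 4 genes lie in a row on the plus strand of chromosome 10 within 137 kb (GENCODE 29 on GRCh38). IFIT2 (ENSG00000119922) spans 89283694 to 89309276, IFIT3 (ENSG00000119917) 89327894 to 89340971, IFIT1 (ENSG00000185745) 89392546 to 89406486 and IFIT5 (ENSG00000152778) 89414586 to 89421001. LIPA, a lysosomal lipase gene on the minus strand, is annotated across the cluster from 89213569 to 89414557. Its exons share 65 bases with those of IFIT2 and 0 with those of the other members. The same-strand noncoding gene AL353751.1 shares 356 exon bases with IFIT2. The use of strand in the authors' counting is not given in the sources used here.

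**Figure D1:**
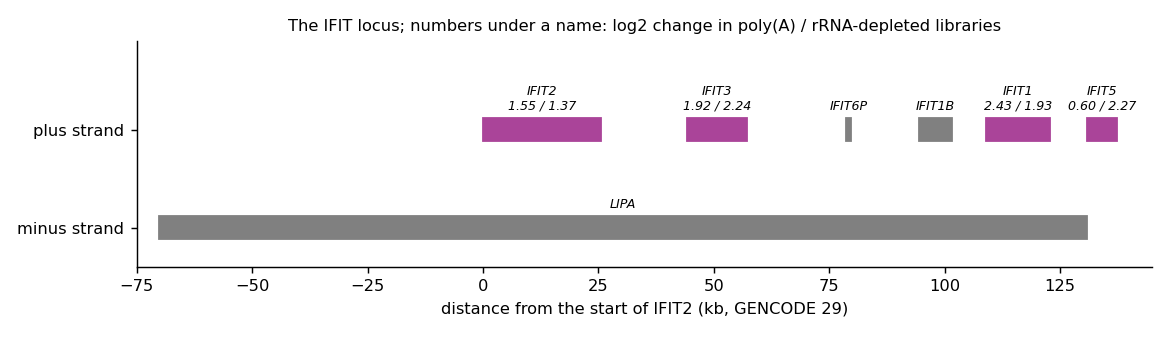
Map of the IFIT locus, with distance from the start of IFIT2 in kb on the x axis and the strand on the y axis. Bars are annotated gene spans, the IFIT members in purple, and the numbers give the log2 change in the poly(A) and in the rRNA-depleted libraries, from 0.60 to 2.43 in the former and from 1.37 to 2.27 in the latter.

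Promoter sequences are shown because ISREs are the element through which this family is known to be induced. RefSeq windows (GRCh38.p14, 250 bases before to 50 bases after a start site) were found for 3 of the 4 members, IFIT1, IFIT3 and IFIT5, with 2 start sites for IFIT3. The core TTTC-NN-TTTC, where N is any base, was searched on both strands, overlapping matches included. The sequences below are on the plus strand and end just before the first annotated exon base, or at the end of a match that crosses it. Capitals mark the matches.
IFIT1, chr10:89392373-89392545: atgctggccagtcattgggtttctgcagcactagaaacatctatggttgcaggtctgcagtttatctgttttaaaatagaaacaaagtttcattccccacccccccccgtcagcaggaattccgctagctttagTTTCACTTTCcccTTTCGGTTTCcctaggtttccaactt
IFIT3, first start site, chr10:89327747-89327893: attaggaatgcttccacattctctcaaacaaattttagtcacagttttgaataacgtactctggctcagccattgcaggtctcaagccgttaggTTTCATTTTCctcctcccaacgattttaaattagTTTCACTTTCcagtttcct
IFIT3, second start site, chr10:89332279-89332487: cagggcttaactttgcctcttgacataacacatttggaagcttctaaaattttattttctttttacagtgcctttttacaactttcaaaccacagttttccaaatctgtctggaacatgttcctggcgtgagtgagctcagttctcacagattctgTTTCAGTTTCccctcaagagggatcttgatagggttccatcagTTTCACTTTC
IFIT5, chr10:89414318-89414573: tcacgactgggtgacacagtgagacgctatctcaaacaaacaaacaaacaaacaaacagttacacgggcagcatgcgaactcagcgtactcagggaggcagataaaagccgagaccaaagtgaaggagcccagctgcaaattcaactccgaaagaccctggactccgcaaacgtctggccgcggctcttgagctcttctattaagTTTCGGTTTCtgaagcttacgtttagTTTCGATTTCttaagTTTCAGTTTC

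IFIT1 held 2 matches, which began 116 and 103 bases before its RefSeq start site. IFIT3 held 2 before each start site, at 156 and 122 bases before the first and at 94 and 51 bases before the second. IFIT5 held 3, at 45, 19 and 4 bases before its start site. All 9 lay on the plus strand. Of 35116 windows of the same length, 3.57% held at least 1 match and 0.259% held 2 or more. The match was also held by 30 of 44 other interferon-stimulated genes with a window (68.2%), against 4.38% of 27305 genes. The window of IFIT1B, a paralog inside the cluster, held 0 matches, and IFIT1B stood at 0 TPM throughout the 6 rRNA-depleted libraries and had a mean normalized count of 0 in the authors' deposited table. A match describes these letters only and is not a measurement of binding.

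A few facts of the whole series bear on the values. In the rRNA-depleted libraries TPM, each gene's length-corrected share of a library, could be turned back into reads with gene lengths, which gave 266157 to 487271 reads for the wild-type and 512625 to 1267165 for the knockout-labelled libraries. Knockout-labelled libraries 1 and 2 were close to sampling noise, and whether they passed that test depended on the genes used. Over all 11410 genes with enough reads, rounded, they differed (chi-square 1.07 per degree of freedom, p = 1.99e-07). Over the 10118 genes with whole reads in every library, a restriction made after the first outcome was seen, no difference was found at the 0.05 threshold (chi-square 1.02 per degree of freedom, where sampling noise alone gives 1, p = 0.0696). The other pairs of a label gave 1.16 to 1.54 over genes with whole reads. The 2 libraries were counted as 1 sample, so that 3 wild-type samples stood against 2 knockout-labelled ones, and values with 6 separate libraries are given beside the calls that follow. METTL3 mRNA was 25.4 to 31.6 TPM in the wild-type and 39.2 to 42.7 TPM in the knockout-labelled libraries, so it does not check the label. Of 12 microglia and macrophage markers, 9 were listed at 0 in all 6 libraries, among them AIF1, CX3CR1, P2RY12 and TMEM119, and their summed level was at most 6.47 TPM. Of 9 mesenchymal markers 6 were tested, 3 higher and 3 lower, against 22.9% and 12.4% of all genes, with a median log2 change of -0.02. Their summed level was 11650 to 14076 TPM in the wild-type and 5624 to 5722 TPM in the knockout-labelled libraries. It was carried by the collagen gene COL1A1 (means 10669 and 819 TPM), while VIM (477 and 2242 TPM), FN1 (835 and 2191 TPM) and THY1 (127 and 264 TPM) rose. In the authors' deposited table COL1A1 (-0.79), VIM (0.49) and THY1 (0.58) kept these directions. FN1 was lower there (-0.34). COL1A2 and PDGFRB fell in the rRNA-depleted libraries (-2.18 and -1.08). In the authors' deposited table COL1A2 was higher (0.30) and PDGFRB did not pass (-0.05). The summed epithelial markers, 691 to 744 and 325 to 329.8 TPM, were almost all KRT18 (719 and 323 TPM). The summed neuron and astrocyte markers were 1.65 to 4.59 and 14.3 to 14.96 TPM, the latter mostly SNAP25 (0.594 and 9.25 TPM). The part of these markers in the results below was not tested.

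In the poly(A) libraries all 4 IFIT mRNAs were higher in the knockout label, per the authors' deposited table, in which 19.9% of 14009 genes were called with a 0.05 threshold on the adjusted p, 9.55% higher and 10.3% lower. IFIT1 had the largest log2 fold change of the 4 in the authors' deposited table, 2.43 (SE 0.11), which is 5.39-fold, with an adjusted p of 2.63e-111. IFIT3 followed in the authors' deposited table with 1.92 (SE 0.11; 3.78-fold; adjusted p 1.31e-69) and IFIT2 with 1.55 (SE 0.14; 2.92-fold; adjusted p 1.63e-26). IFIT5, the member that acts without partners, had 0.60 (SE 0.13; 1.51-fold; adjusted p 9.48e-05) in the authors' deposited table. As in any bulk sample, more cells with a transcript and more RNA per cell cannot be told apart. By p-value IFIT1 was number 4 and IFIT3 number 12 of the 2782 genes called in either direction in the authors' deposited table, against 55 for IFIT2 and 721 for IFIT5.

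Placed among all genes with an adjusted p in the authors' deposited table, IFIT1, IFIT3 and IFIT2 stood at percentiles 99.1, 98.3 and 97.0 of the log2 fold change and IFIT5 at 85.6. The 95% normal range of IFIT5 (0.34 to 0.85) lay below those of IFIT2 (1.27 to 1.82), IFIT3 (1.71 to 2.13) and IFIT1 (2.22 to 2.64) in the authors' deposited table. The difference between these genes was not tested, because the table holds no value for a single library. It also does not state the numerator of its fold change. A positive value was read as higher in knockout, since 91.4% of 174 genes other than the members that passed in both library types and moved by 1 or more log2 units then had the same sign.

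In the rRNA-depleted libraries the family rose as well, and the wild-type values rested on few reads. All 4 members passed the limma threshold in the upward direction, where 22.9% of 14789 genes tested did. In the downward direction 12.4% passed, which makes 35.3% in all. Every knockout-labelled library lay above every wild-type library for all 4, which held for 38.4% of genes tested. The median log2 change of all genes tested was 0.41, so changes are also given relative to it. Among all genes tested, IFIT5, IFIT3, IFIT1 and IFIT2 stood at percentiles 91.3, 91.1, 86.9 and 76.0 of the log2 change. The SD of that change over all genes was 1.60. Of all genes called, 64.8% were higher, against 48.6% with median ratio scaling.

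IFIT3, which holds the IFIT complex together, was at 18.8, 15.7 and 11.3 TPM in wild-type libraries 1 to 3, from 7, 4 and 5 reads. In knockout-labelled libraries 1 to 3 IFIT3 was at 85.1, 89.2 and 63.6 TPM, from 67, 86 and 26 reads. The lowest knockout-labelled library of IFIT3 was thus 3.39 times the highest wild-type one. Wild-type IFIT3 averaged 15.3 ± 3.74 TPM (SD, n = 3) and knockout-labelled IFIT3 75.4 ± 16.6 TPM (SD, n = 2). Its limma log2 change was 2.24 (SE 0.29; adjusted p 0.00491), or 1.83 relative to all genes.

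IFIT1, the cap-sensing member, had wild-type levels of 30.7, 17.9 and 11.7 TPM, from 20, 8 and 9 reads. It was at 80.7, 78.4 and 68.6 TPM in the knockout-labelled libraries, from 111, 132 and 49 reads. The wild-type libraries of IFIT1 differed from one another more than the knockout-labelled ones, with library 1 the highest. IFIT1 averaged 20.1 ± 9.70 TPM (wild type, SD, n = 3) and 74.1 ± 7.72 TPM (knockout label, SD, n = 2), and its log2 change was 1.93 (SE 0.41; limma adjusted p 0.0196), or 1.52 relative to all genes.

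IFIT5 had wild-type levels of 5.29, 10.3 and 5.96 TPM, from 3, 4 and 4 reads, and knockout-labelled levels of 30.1, 44.3 and 37.0 TPM, from 36, 65 and 23 reads. The groups of IFIT5 did not overlap, but 3 reads alone allow 1.09 to 15.5 TPM in wild-type library 1 (exact 95% Poisson interval). IFIT5 averaged 7.19 ± 2.72 TPM (wild type, SD, n = 3) and 37.1 ± 0.144 TPM (knockout label, SD, n = 2). The latter SD is small because libraries 1 and 2 were averaged first. Over the 3 separate knockout-labelled libraries it was 7.15 TPM. The log2 change of IFIT5 was 2.27 (SE 0.36; limma adjusted p 0.00895), or 1.86 relative to all genes.

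IFIT2, the member linked to cell death, had wild-type levels of 8.12, 5.93 and 12.01 TPM, from 4, 2 and 7 reads. It was at 25.9, 26.7 and 20.4 TPM in the knockout-labelled libraries, from 27, 34 and 11 reads. Library 3 was the highest wild-type and the lowest knockout-labelled library of IFIT2, and these differed by 1.70 times. IFIT2 averaged 8.69 ± 3.08 TPM (wild type, SD, n = 3) and 23.3 ± 4.21 TPM (knockout label, SD, n = 2). Its limma log2 change was 1.37 (SE 0.39; adjusted p 0.045), or 0.95 relative to all genes. IFIT2 did not pass under 10 of 19 alternatives, among them median ratio scaling (limma adjusted p 0.0902) and leaving out wild-type library 1 (0.0896) or 2 (0.0632), so its call in these libraries depends on the processing.

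**Figure D2:**
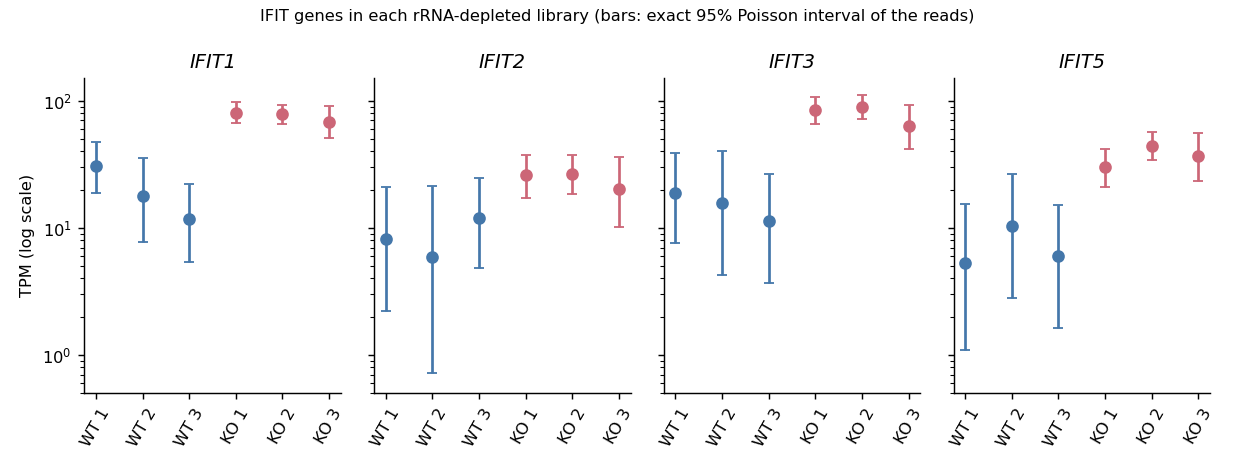
TPM of each IFIT gene (log y axis) in the 3 wild-type (WT, blue) and 3 knockout-labelled (KO, red) rRNA-depleted libraries, with bars for the exact 95% Poisson interval of the reads behind each value. The knockout-labelled points lie above the wild-type points in all 4 panels, and the bars are widest for IFIT2 and IFIT5 in the wild type, where 2 to 7 reads were counted.

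The two-sided exact permutation p was 0.2 for each member, the smallest that 3 against 2 samples allow, so the calls above rest on the spread that limma shares across genes. The exact Poisson intervals cover counting error only, as the reads carry no stated molecular identifiers. Without knockout-labelled library 3, which leaves 1 knockout sample whose spread is assumed to be that of the wild type, no member passed (limma adjusted p 0.153 for IFIT1, 0.173 for IFIT2, 0.054 for IFIT3 and 0.103 for IFIT5), although the log2 changes were 1.54 to 2.46. The count over all genes fell from 5220 to 1663 without that library. With the 6 libraries as separate samples all 4 passed (limma adjusted p 0.00342 for IFIT1, 0.00965 for IFIT2, 0.000496 for IFIT3 and 0.00161 for IFIT5), and the exact permutation p was 0.1, again the smallest possible.

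Summed over the 4 genes, the family came to 62.9, 49.9 and 41.0 TPM for wild-type libraries 1 to 3, and to 222, 239 and 189.6 TPM for knockout-labelled libraries 1 to 3. The family averaged 51.3 ± 11.02 TPM (SD, n = 3) and 209.9 ± 28.7 TPM (SD, n = 2), a ratio of 4.09. The family was counted with 18 to 34 reads in a wild-type and 109 to 317 reads in a knockout-labelled library. IFIT1 and IFIT3 together made up most of the sum in every library.

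**Figure D3:**
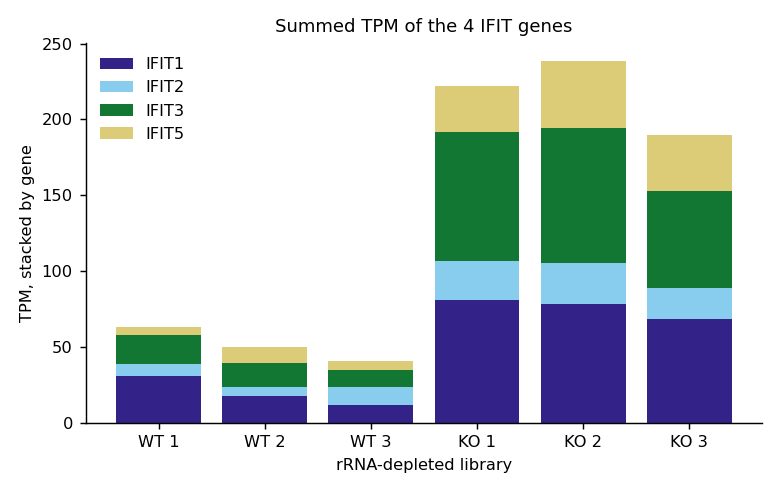
TPM of IFIT1, IFIT2, IFIT3 and IFIT5 stacked for each rRNA-depleted library (WT, wild type; KO, knockout label). The bars reach 41.0 to 62.9 TPM in the wild type and 189.6 to 239 TPM in the knockout-labelled libraries, and IFIT3 takes 33.6% to 38.4% of the latter.

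The order of the levels per length was IFIT1, IFIT3, IFIT2 and IFIT5 in the wild type, but the ranges of neighbours in that order overlapped in each case. In the knockout-labelled libraries IFIT3 and IFIT1 stood level within their spread, IFIT5 followed, and IFIT2 was lowest in all 3 libraries. IFIT3 was 27.7% to 31.4% of the family in the wild type and 33.6% to 38.4% in the knockout label. IFIT2 was 11.9% to 29.3% and 10.7% to 11.7%, with the high value in wild-type library 3. The log2 ratio of IFIT3 to IFIT2 was -0.08 to 1.40 in the wild-type libraries and 1.64 to 1.74 in the knockout-labelled libraries. These ranges do not overlap, and this was the only pair of members for which that held. The wild-type ratios rest on 2 to 7 reads of IFIT2 and 4 to 7 reads of IFIT3 per library. How often pairs of other genes show such a gap was not computed, so the gap is a description only.

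Whether members changed by different amounts was examined for the 6 pairs of genes with the log2 ratio of TPM + 1 in each sample. The largest shifts were those of IFIT2 against IFIT5, -0.90 (SE 0.64), and of IFIT2 against IFIT3, -0.87 (SE 0.55). Their two-sided exact permutation p-values were 0.4 and 0.2, and 0.8 for each after Benjamini-Hochberg adjustment over the 6 pairs. None of the 6 pairs passed, and a design of 3 against 2 samples cannot go below 0.2, so this does not show that the members changed alike. Across the 6 libraries the Pearson correlation of log2(TPM + 1) between members was 0.81 to 0.98, a description over points that share libraries and the contrast.

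By point estimate the library types gave the members a different order. IFIT1 led in the authors' deposited table, and IFIT5 and IFIT3 had the largest log2 changes in the rRNA-depleted libraries. In the latter the limma intervals of the 4 members overlap, so their order there is not resolved. With the GC trend removed IFIT3 (1.88) came before IFIT5 (1.52). For IFIT1, IFIT2 and IFIT3 the limma interval in the rRNA-depleted libraries (95%) contained the poly(A) value: it was 0.89 to 2.96 for IFIT1, 0.39 to 2.35 for IFIT2 and 1.51 to 2.97 for IFIT3. For IFIT5 it was 1.35 to 3.19 and lay above the 0.60 of the authors' deposited table. The difference between library types was not tested. The values differ in scale, since the pseudocount of 1 lowers the change of genes at few TPM. With a pseudocount of 0.1 the rRNA-depleted log2 change of IFIT5 was 2.41, further from its poly(A) value. Genes within 1 percentage point of IFIT5 in GC content had a median of 1.21 in the rRNA-depleted libraries and 0.16 in the authors' deposited table. Members passed in both library types in the upward direction 4 of 4 times, against 5.18% of the 12498 genes tested in both.

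**Figure D4:**
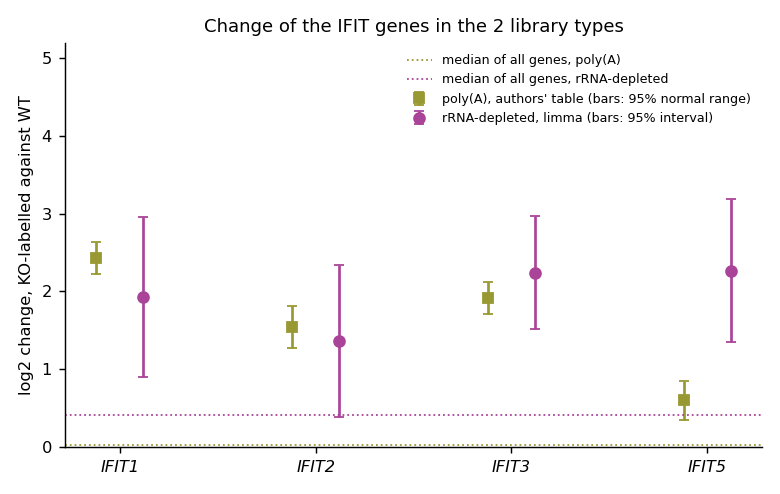
Log2 change of each IFIT gene (y axis) from the authors' deposited poly(A) table (squares, bars for the 95% normal range) and from limma on the rRNA-depleted libraries (circles, bars for the 95% interval), with dotted lines at the medians of all genes, 0.02 and 0.41. IFIT5 is lowest of the 4 in poly(A) RNA (0.60) and highest by point estimate in rRNA-depleted RNA (2.27), where the bars of the 4 overlap.

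Transcript composition moved with the rRNA-depleted contrast. The median change of all genes went from 1.24 on the log2 scale in the tenth of genes with the lowest GC content to -0.41 in the highest, against 0.15 to -0.14 in the authors' deposited table. The longest transcripts of IFIT5, IFIT1, IFIT2 and IFIT3 had 37.4%, 42.2%, 42.8% and 44.3% GC, below the median of 48.3% over 11781 protein-coding genes tested. Genes within 1 percentage point of IFIT5 in GC content had a median log2 change of 1.21 in the rRNA-depleted libraries (831 genes), and IFIT5 exceeded it by 1.06. The corresponding excess was 1.02 for IFIT1, 1.41 for IFIT3 and 0.50 for IFIT2, which stood at percentiles 81.3, 88.7 and 67.6 of their GC neighbours, and IFIT5 at 83.9.

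With the trend with GC content removed from each library, the log2 changes of IFIT3, IFIT5 and IFIT1 were 1.88, 1.52 and 1.46, and each still passed (limma adjusted p 0.00659, 0.0234 and 0.0395). That of IFIT2 was 0.93 and did not pass (limma adjusted p 0.108). The median of all genes was still 0.47 in this setting. Relative to that median the changes were 1.41 for IFIT3, 1.04 for IFIT5, 0.98 for IFIT1 and 0.45 for IFIT2. In the authors' deposited table the GC neighbours of the members had medians of 0.06 to 0.16, far below the values of IFIT1, IFIT2 and IFIT3 there.

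**Figure D5:**
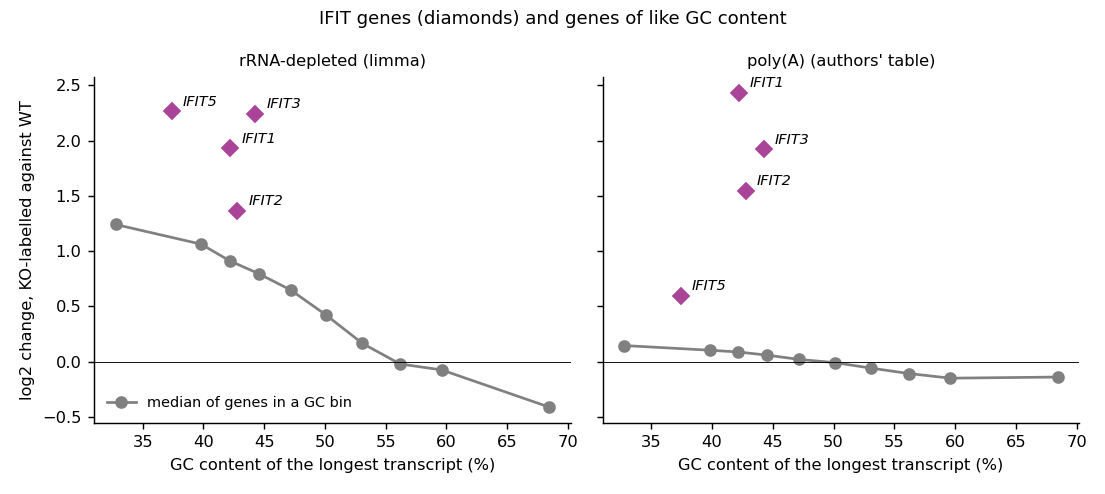
Log2 change against GC content of the longest transcript (%) for the IFIT genes (diamonds) and for the median of genes in 10 GC bins (grey line), in rRNA-depleted (left) and poly(A) libraries (right). The grey line falls from 1.24 to -0.41 on the left and from 0.15 to -0.14 on the right, and the 4 members lie above it in both.

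The commonest core of m6A sites, GGACT, was counted on the transcript strand, since the study concerns the enzyme that modifies such sites. The longest transcripts held 4 copies for IFIT1, 4 for IFIT2, 3 for IFIT3 and 4 for IFIT5. That is 0.867, 1.08, 1.20 and 0.996 per kb, at percentiles 46.2, 60.4, 67.4 and 55.3 of protein-coding genes tested, whose median was 0.922 per kb. These counts describe letters and do not show methylation, which was not measured in the files used here.

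Sequence shared with other genes could mix reads. Of the 50-base words of the longest transcript, 1.03% of those of IFIT1 also occurred in a transcript of another gene, 38 of 47 such words in IFIT1B. The share was 2.62% for IFIT3 and 0% for IFIT5. For IFIT2 it was 8.40%, all 307 words lying in AL353751.1, which overlaps exons of IFIT2. The IFIT2 values did not become whole reads with the exon union of 4101 bases, but did with the 3489 bases of transcript IFIT2-201, found by trying the lengths of its transcripts. The pseudogene IFIT1P1 had 1 read in each of knockout-labelled libraries 1 and 3 and 0 elsewhere, and IFIT6P was listed at 0 throughout.

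Upstream of the family, 31 interferon signalling genes were listed. An adjusted p was given to 22 of them by the authors' deposited table, of which 10 were higher and 1 lower. Over all genes there, 9.55% were higher and 10.3% lower. The list had a median log2 fold change of 0.56 against 0.02 for all genes. The sensors of viral RNA RIGI and IFIH1 had 2.33 (SE 0.14) and 2.84 (SE 0.47), and the transcription factor STAT2 had 0.62 (SE 0.17) in the authors' deposited table. JAK1 (0.63), IRF1 (0.76), IRF2 (0.56), IRF7 (0.69), IFNGR2 (0.88) and USP18 (1.60), a feedback inhibitor, were also higher there. IFNLR1, the type III interferon receptor, was the 1 lower gene of the authors' deposited table (-2.09, SE 0.71), at a mean normalized count of 3.16. IRF9, which binds DNA together with STAT2, had 1.07 (SE 0.48) with an adjusted p of 0.106 in the authors' deposited table.

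In the rRNA-depleted libraries 23 of the signalling genes passed the filter. Of these, 4 were higher and 4 lower, against 22.9% and 12.4% of all genes, so no larger a share was higher. The median log2 change was 0.55 against 0.41 for all genes. RIGI averaged 6.26 ± 3.39 TPM (wild type, SD, n = 3) and 83.2 ± 8.52 TPM (knockout label, SD, n = 2), a rise of 3.66 on the log2 scale (SE 0.49; limma adjusted p 0.00535), and JAK1 (1.64) and STAT2 (0.55) also passed. The receptor subunits IFNAR1 (-1.37) and IFNAR2 (-2.47), the adaptor MAVS (-1.35) and the factor IRF3 (-1.14) fell past the limma threshold on the log2 scale, and none of these 4 passed in the authors' deposited table. The count of higher genes was 1 without knockout-labelled library 3 and 7 with the GC trend removed.

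Interferon genes themselves were hardly seen. IFNB1, IFNA1, IFNK, IFNL1, IFNL2 and IFNL3 were listed at 0 in all 6 rRNA-depleted libraries, and IFNE was at most 4.06 TPM. The authors' deposited table gave IFNB1 no adjusted p, at 0.288 normalized counts on average. A difference in interferon mRNA was not detectable at this depth.

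Most other targets of the same pathway were higher in the poly(A) libraries, and a smaller share passed as higher in the rRNA-depleted libraries. The 2 shares come from different tests on different numbers of libraries, so they do not compare directly. Of 51 other interferon-stimulated genes, the authors' deposited table tested 48, of which 44 were higher and 0 lower. Over all genes there, 9.55% were higher and 10.3% lower. The list had a median of 1.501 against 0.02 for all genes. BST2 (4.99), IFITM1 (4.59), OAS2 (4.11) and XAF1 (4.04) had the largest log2 fold changes among those that passed in the authors' deposited table, above every IFIT gene, XAF1 at a mean normalized count of only 1.40. ZC3HAV1 (0.64), TAP1 (0.76), ADAR (0.77) and IFI35 (0.91) had the smallest, and IFIT5 at 0.60 was below all 44. In the rRNA-depleted libraries 45 were tested, and 29 were higher and 2 lower by limma, against 22.9% and 12.4% of all genes. The median was 1.84 against 0.41 for all genes. The 2 lower genes, IFI6 (-0.76) and EIF2AK2 (-1.05), were higher in the authors' deposited table (2.18 and 1.26). Without knockout-labelled library 3 the higher count was 11.

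Genes beside the cluster were also listed. Of 9 neighbours, the authors' deposited table tested 7 and called 2 higher, against 9.55% of all genes. They were FAS (1.28, SE 0.34), a death receptor, and STAMBPL1 (0.56, SE 0.21), a deubiquitinase. LIPA, which is annotated across the cluster, had 0.08 (SE 0.12; adjusted p 0.713) in the authors' deposited table. LIPA was at 1.44, 8.43 and 7.32 TPM in the wild-type and at 23.2, 15.6 and 13.2 TPM in the knockout-labelled rRNA-depleted libraries. Every knockout-labelled library of LIPA thus lay above every wild-type one, which held for 38.4% of genes tested. LIPA did not pass (1.56, SE 0.71, limma adjusted p 0.146). Of 7 neighbours tested in these libraries, STAMBPL1 (2.06) and KIF20B (2.44), a mitotic kinesin, were higher, a count near the 22.9% of all genes. CH25H, an interferon-responsive cholesterol hydroxylase, was listed at 0 in all 6.

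The genes whose levels followed the mean of the 4 members most closely over the 6 libraries, among 11859 genes at a mean of 5 TPM or more, were PRKAR1A, SLC25A36, RAB5B, DST and SREK1. Their Pearson correlations were 0.999, and 3120 genes (26.3%) exceeded 0.9. PRKAR1A, a regulatory subunit of protein kinase A, went from 41.3 to 46.7 TPM in the wild type to 131.6 to 157 TPM in the knockout label, but had -0.10 (adjusted p 0.5003) in the authors' deposited table. SLC25A36 (0.36) and RAB5B (0.37) passed in the authors' deposited table, and DST (0.10) and SREK1 (0.14) did not.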

How the data were processed

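The submitters' processing notes name Trimmomatic, STAR, DESeq2 and build hg38. Annotation and counting tool are not given in the sources used here. Poly(A) libraries were used through 1 comparison table, which per the file headers holds a mean normalized count (a pooled signal), a log2 fold change with its SE, a Wald score and p-values. It was read, not retested. The 6 rRNA-depleted libraries were deposited as TPM. Samples were grouped by titles, and 0 columns were left unused.

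Reads were recovered as TPM times the exon union of GENCODE 29 (93.8% of gene identifiers matched), divided by the commonest value. Of values above 0, 90.9% were whole to within 0.02. Limma 3.58.1 in R 4.3.3 was run on log2(TPM + 1) for genes that reached 1 TPM in 3 or more libraries, with eBayes trend and Benjamini-Hochberg adjustment at 0.05. Knockout-labelled libraries 1 and 2 were averaged on the second of the 2 noise tests reported with the results.

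The step was tested on simulated reads for this comparison, in which 200 genes moved by 2 log2 units, and recovery depended on the spread assumed. The first version tried, with a negative binomial size of 20 and changed genes drawn from all genes, recovered 0 of 200 (14044 genes tested). The spread and the draw were changed after that outcome. With size 20 and changed genes of 5 or more mean reads it recovered 1. With size 100 it recovered 51 from all genes and 82 from genes of 5 or more mean reads (14078 tested in each), and with Poisson reads 55 (14083 tested) and 86 (14078 tested). These versions called 0 to 23 unchanged genes, 0 of them with 5 or more mean reads, and 0 to 4 genes when none was changed. The simulation thus does not fix the power of the test, because the true spread is unknown. Scipy 1.17.1 gave exact tests. Promoters came from RefSeq (GRCh38.p14).

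The members, lists and tests were chosen with earlier results of these data known. Named genes were the members, the signalling and neighbour lists, the 4 largest and 4 smallest passing poly(A) changes of other lists, and the 5 most alike genes. Marker genes named come from the fixed marker lists and, like AL353751.1, IFI6 and EIF2AK2, were picked after their values were seen. Alternatives tried were other pseudocounts, filters, scalings, GC correction, separate libraries, a replicate block, array weights, voom, thinning, a stricter threshold and leaving out each library. Of the signalling list, 1 gene is counted but not reported here by name.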

Additional observations from a re-analysis of the deposited data

How the results depend on the processing

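All 4 members kept an upward log2 change under each of 19 alternatives in the rRNA-depleted libraries. IFIT1, IFIT3 and IFIT5 kept their call in 18, all but the removal of knockout-labelled library 3. IFIT2 lost it with a pseudocount of 0.1 (1.46), no filter (1.37), median ratio scaling (1.04), 75th percentile scaling (1.18), quantile normalization (0.97), the GC trend removed (0.93) and reads thinned once to the shallowest library, a choice made after seeing the data (0.56). The cause was not tested. Leaving out 1 library gave log2 changes of 1.61 to 2.27 for IFIT1, 1.15 to 1.60 for IFIT2, 2.05 to 2.46 for IFIT3 and 2.10 to 2.52 for IFIT5, and 1663 to 5185 genes called. An adjusted p under 0.01, which is not among the 19 alternatives, gave 2242 genes against 5220. IFIT3 (limma adjusted p 0.00491) and IFIT5 (0.00895) passed that stricter threshold, and IFIT1 (0.0196) and IFIT2 (0.045) did not. Requiring a fold change of 1 or more log2 units in the deposited poly(A) results left 647 of 2782 genes. IFIT1 (2.43), IFIT3 (1.92) and IFIT2 (1.55) met that requirement, and IFIT5 (0.60) did not. Adjustment over every gene with a p-value changed no member's call. Under voom and quantile normalization 52.5% and 52.6% of calls were higher.

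Whether the shared replicate numbers pair the libraries is not stated by the labels. Same-numbered libraries had correlations of deviations of -0.02 to 0.02, and not every library correlated best with its own number. The deviations hold much counting noise at this depth, so these correlations cannot settle the pairing. With a replicate block over the 6 separate libraries, 6037 genes were called (6880 without the block), and the log2 changes were 1.96 for IFIT1, 1.43 for IFIT2, 2.32 for IFIT3 and 2.25 for IFIT5. The block changed no member's call, and it lowered the SE of IFIT1, IFIT3 and IFIT5 but raised that of IFIT2. The wild-type values rest on 2 to 20 reads per member and library.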

Other observations

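IFIT proteins recognise the 5′ end of RNA, and 12 genes for enzymes that make, modify or remove that end were listed. The authors' deposited table called 1 of the 12 higher and 0 lower, CMTR2, which methylates the second ribose of the cap, with a log2 fold change of 0.51 (SE 0.16; adjusted p 0.0105). That is near the 9.55% of all genes called higher there, and the median of the list was 0.03 against 0.02 for all genes. In the rRNA-depleted libraries 5 of 12 were higher and 0 lower by limma, against 22.9% and 12.4% of all genes, with a median of 1.24 against 0.41, and CMTR2 went from 2.85 to 12.1 TPM (log2 change 1.79, SE 0.45; limma adjusted p 0.0307).

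Of 11 genes for proteins that IFIT proteins are known to contact or act beside, the authors' deposited table called 1 higher and 0 lower, near the 9.55% of all genes called higher. That gene was STING1, an adaptor of DNA sensing, with 0.93 (SE 0.23; adjusted p 0.000668). In the rRNA-depleted libraries 3 were higher and 4 lower by limma, against 22.9% and 12.4% of all genes, with a median of 0.18 against 0.41, and STING1 did not pass (1.41, SE 0.45; limma adjusted p 0.0639).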
